A study of Mus musculus with 10 samples.

Results

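After cocaine self-administration, RNA on the tagged ribosomes of dopamine D2 receptor cells was set against the RNA that the same kind of pulldown had left behind. The comparison used 6 of the 10 samples of the series: 5 immunopurified (IP) samples, numbered 1 to 5, and 1 unbound sample. All came from the whole striatum of adult Drd2-TRAP (CP101) mice, in which cells using the Drd2 gene carry EGFP joined to the ribosomal protein L10a, and all mice had self-administered intravenous cocaine with short access. Tagged polysomes were captured with antibodies to EGFP on magnetic beads. The remaining samples, 3 IP samples and 1 total RNA input sample from mice that had self-administered saline, appear only beside results for the cocaine samples. The labels do not say whether samples came from separate mice or from pooled tissue, so a standard deviation (SD) given for the 5 IP samples may be technical. With 1 unbound sample there is no p-value anywhere below.

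Members were chosen by level alone. Of 32531 gene symbols in the files, 12643 had a mean of at least 1 CPM (reads of the gene relative to all gene reads of the sample, scaled between samples by the trimmed mean of M-values, TMM) over the 6 samples, and these are called measured genes. For each of them the log2 ratio of each IP sample to the unbound sample was taken after adding 1 to both CPM values. A gene is called higher or lower when all 5 IP samples were at least 2-fold above or below the unbound sample. Of the called genes, 382 lower ones had a mean under 1 CPM in IP and 9 higher ones had under 1 CPM unbound, so these passed the filter through 1 fraction only. At its edge, Dab2, named for its place there, was just inside with a mean of 1.002 CPM (0.120 to 0.616 CPM in IP and 4.15 CPM unbound). CPM is not divided by transcript length, so levels are compared between samples and not between genes.

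Translating ribosome affinity purification (TRAP) recovers the messages that tagged ribosomes carry at the moment of lysis. In the striatum, Drd2 is used mainly by indirect-pathway medium spiny neurons (MSNs), GABA neurons that send axons to the external pallidum, and also by cholinergic interneurons. The receptor protein also lies on endings of midbrain dopamine neurons. A ribosome travels along a coding sequence and either stays in the cytosol or docks at the endoplasmic reticulum (ER) when the first residues of the protein form a hydrophobic signal sequence. Nuclear RNA and RNA of untagged cells carry no tagged ribosome and belong in the unbound fraction. Unbound RNA is not free of D2 cell RNA, because a pulldown takes up only part of it.

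Gene reads numbered 22975667 to 31631137 in the cocaine IP samples and 20882691 in the unbound sample, so that 3 reads corresponded to 0.0946 to 0.132 CPM and 0.128 CPM. The sample descriptions carry lane codes: cocaine IP 1 and 2 lane 6, cocaine IP 3, 4 and 5 lane 4, and the unbound and input samples lane 1. Fraction and lane therefore cannot be told apart, whereas lane 4 and lane 6 samples can be compared with each other. Reads outside any annotated gene made up 12.9% to 13.8% of uniquely placed reads in the cocaine IP samples and 27.4% in the unbound sample. The ribosomal RNA precursor Rn45s took 5.17% to 6.24% of gene reads in cocaine IP 1 to 4, 1.497% in cocaine IP 5 and 2.05% in the unbound sample. Cocaine IP 5 thus held less of this RNA than the other 4, and each result that differs in it is given with its own value. The 28 pairs of IP samples from both treatments differed by 13.4 to 155 times the variance that read sampling alone gives, and no pair agreed within sampling noise. The gene models of Penk, Hpca, Ppp1ca, Ppp1r1b, Pde10a, Timm8b, Malat1, Meg3, S100b and Slc1a2 overlap a gene on the other strand and those of Hsp90b1 and Manf a gene on the same strand. Whether counting used strand is not given in the sources used here, so counts of such genes are uncertain.

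Across all measured genes, 478 were higher on the ribosomes of D2 cells (3.78%) and 1231 were lower (9.74%). The lower side includes the 382 genes that passed the filter through the unbound sample only, and a filter at 5 CPM gave 465 higher and 556 lower genes (45.5% of calls higher). Of all measured genes, 8 were at least 4-fold higher in all 5 IP samples, while 490 were at least 4-fold lower, 135 at least 8-fold lower and 24 at least 16-fold lower. The median log2 ratio over all genes was 0.17 ± 0.03 (SD, n = 5), with quartiles of -0.40 and 0.61, and 8123 genes (64.2%) lay within 2-fold of the unbound level in all 5 IP samples. The median gene had an SD of 0.20 between IP samples, and 9384 genes (74.2%) had a ratio of the same sign in all 5. Protein-coding genes made up 464 of the 478 higher ones. With library size as the only scaling, the median over all genes moved to -0.02, and the calls became 247 higher and 1477 lower (14.3% of calls higher, against 27.97% with TMM). From scaling alone, a ratio between about -0.2 and 0.2 therefore has no firm sign, and ratios are best read against the median of all genes. Other alternatives moved some larger ratios across 0. The median of cytosolic ribosomal proteins, for example, was 0.43 against unbound RNA and -0.01 against the saline input.

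**Figure D1:**
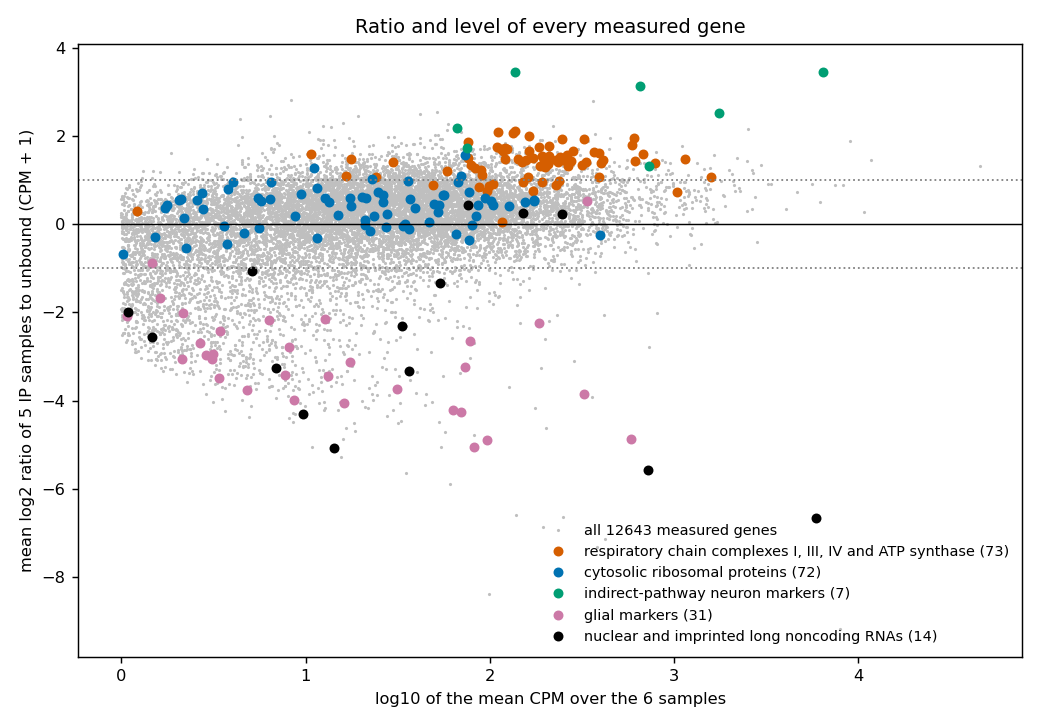
Mean log2 ratio of cocaine IP to unbound RNA (vertical axis, mean of 5 IP samples, 1 CPM added) against mean level (horizontal axis, log10 of CPM over the 6 samples) for the 12643 measured genes, with named gene groups in colour. The lower tail holds 490 genes at least 4-fold down in all 5 IP samples and the upper one 8 at least 4-fold up, with genes of low level making up part of the former.

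The labelled cell type was checked against its own markers. Drd2 (chr9:49340627-49408177, GRCm38, as for all positions here), which encodes the D2 receptor, had 2084, 2524, 2193, 1709 and 1602 CPM in cocaine IP 1 to 5 and 348 CPM in the unbound sample (95% Poisson interval 341 to 356, counting error only). All 5 IP values lay above the unbound value, with a mean log2 ratio of 2.51 ± 0.27 (SD, n = 5). Adora2a (chr10:75316877-75334784), an adenosine receptor gene of the same neurons, stood at 669, 978, 861, 692 and 625 CPM against 85.3. Gpr6 (chr10:41069977-41072285), an orphan receptor gene, was at 91.2 CPM in cocaine IP 1 and at 150 to 202 CPM in the other 4, against 13.4. Penk, the enkephalin precursor gene, split in the same way, with 3968 CPM in cocaine IP 1 and 7008 to 9072 CPM in the other 4, against 662. All 7 genes on the indirect-pathway list were higher, and together they took 1.12% of IP gene reads on average and 0.165% of unbound reads. Over the 10 genes on the direct-pathway list 9 were lower, and the list's median was -2.28 ± 0.23 (SD, n = 5) as a log2 ratio. Drd1, the D1 receptor gene, lay at 29.2 to 51.4 CPM in the IP samples and had 278 CPM unbound. In bulk RNA like this, fewer cells of a type and less RNA per cell cannot be told apart.

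Other cell types were depleted to different degrees. Of 31 measured markers of astrocytes, oligodendrocytes, their precursors and microglia, 29 were lower, with a median of -3.18 ± 0.33 (SD, n = 5), and their share of gene reads was 0.0724% to 0.0951% in IP and 0.889% in unbound RNA. None of the glial lists reached 0: the myelin gene Mobp kept 9.28 to 25.3 CPM against 496, with the highest value in cocaine IP 1. Cholinergic interneuron markers behaved differently, with 0 of 6 called in either direction and a median of -0.48 ± 0.40 (SD, n = 5). Chat, which makes acetylcholine, was at 5.30 CPM in cocaine IP 1, 1.32 to 2.05 CPM in the other 4 and 2.91 CPM unbound, and its annotated span overlaps other genes on both strands. GABA interneuron markers were lower in 5 of 7 measured cases, among them the somatostatin gene Sst at 3.43 to 7.17 CPM against 95.7. Markers of pallial glutamatergic neurons, which lie outside the striatum, were lower in 7 of 7 cases, and cocaine IP 3 had the lowest median, -4.48 against -2.96 to -2.78 in the other 4.

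**Figure D2:**
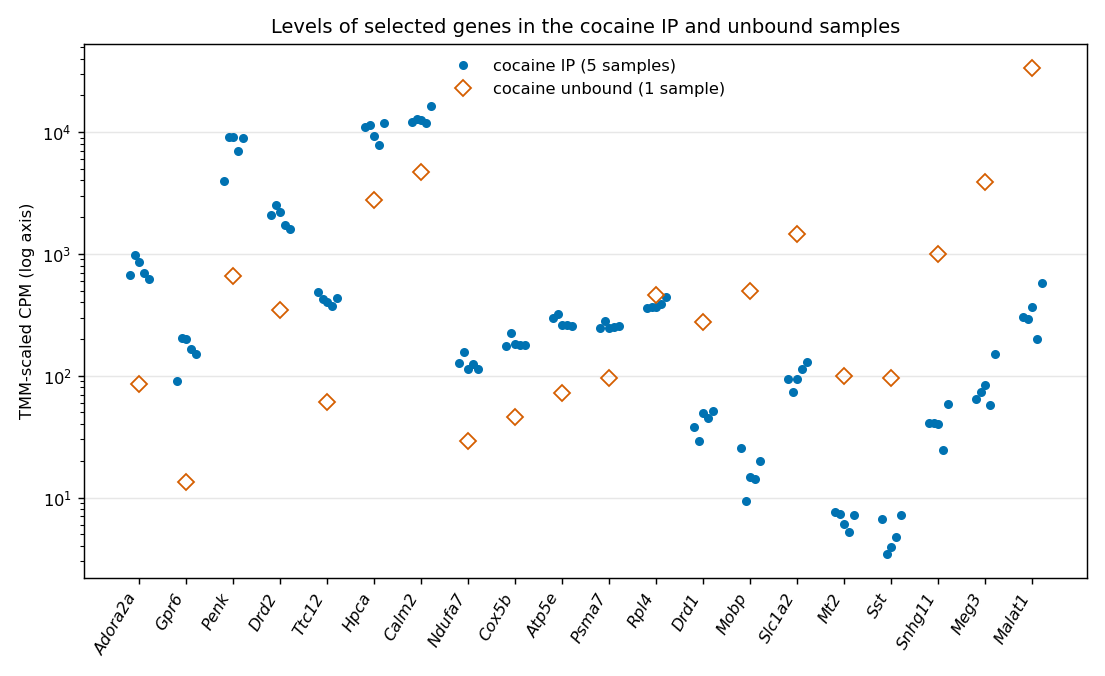
CPM on a log axis for 20 genes named in the text, with 1 dot for each of the 5 cocaine IP samples and a diamond for the unbound sample. Adora2a, at 625 to 978 CPM on ribosomes and 85.3 CPM unbound, and Malat1, at 198 to 573 CPM and 33356 CPM, mark the range from enriched to depleted.

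Genes beside Drd2 and Adora2a were looked at separately. Ttc12 (chr9:49436963-49486225), a tetratricopeptide repeat gene beside Drd2, had 487, 425, 401, 371 and 436 CPM against 60.4, a mean log2 ratio of 2.79 ± 0.14 (SD, n = 5). Ankk1, which lies between Drd2 and Ttc12 and was named after its values were seen, had 38.6, 30.4, 40.03, 34.2 and 33.4 CPM against 17.4. It lay above the unbound value in all 5 IP samples but under 2-fold in cocaine IP 2, 4 and 5, and was not called. The next measured genes outward lay below the unbound value. Ncam1, beyond Ttc12, was at 80 to 150 CPM against 158, and Gm4894, on the other side of Drd2, at 1.17 to 2.72 CPM against 5.30. On chromosome 10, Upb1 (chr10:75401115-75441679), a beta-ureidopropionase gene near Adora2a, had 16.2 to 23.5 CPM against 2.99, a ratio of 2.28 ± 0.22 (SD, n = 5). Upb1 overlaps a gene on the other strand, and its counts are uncertain if strand was not used in counting. Irf4, an interferon regulatory factor gene, was at 3.72, 6.83, 12.4, 8.66 and 18.2 CPM and at 0.385 CPM unbound, all IP values above it but spread over a wide range. It is 1 of the 9 higher genes with under 1 CPM unbound, which passed the filter through the IP samples only. Its mean log2 ratio of 2.83 ran from 1.39 to 4.18 over the processing alternatives.

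The 82 gene lists hold 189 of the 478 higher genes, and the others were given no function here. Within the lists, the machinery of mitochondrial respiration held many of the higher genes. Its nuclear-encoded subunits pass electrons to oxygen through complexes I to IV and make ATP at complex V. Several are very short proteins, and the coding sequences of a pair of them are printed here, without their stop codons, to show their size. Atp5e encodes the epsilon subunit of ATP synthase in 52 codons (chr2:174461072-174464105, minus strand), and Uqcr11 encodes a small subunit of complex III in 56 codons (chr10:80402997-80406830, minus strand). Both were read from the GRCm38 genome with GENCODE annotation, with the start codon in capitals.
Atp5e: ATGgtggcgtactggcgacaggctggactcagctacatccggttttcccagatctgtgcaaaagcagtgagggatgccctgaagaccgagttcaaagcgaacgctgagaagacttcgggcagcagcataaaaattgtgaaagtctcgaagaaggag
Uqcr11: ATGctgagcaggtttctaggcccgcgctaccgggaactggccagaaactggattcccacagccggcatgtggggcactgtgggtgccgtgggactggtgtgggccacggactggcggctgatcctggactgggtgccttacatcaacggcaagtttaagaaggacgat
Atp5e had 297, 322, 258, 263 and 258 CPM in the IP samples and 71.7 CPM unbound, a mean log2 ratio of 1.94 ± 0.14 (SD, n = 5). Uqcr11 had 153, 193, 150, 147 and 124 CPM against 35.3, a ratio of 2.07 ± 0.23 (SD, n = 5). All 5 IP values of each gene lay above its unbound value by more than the spread between them.

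Of 77 measured respiratory chain genes, 55 were higher and 0 lower, and 76 had a positive ratio in all 5 IP samples. Their median log2 ratio was 1.40 ± 0.10 (SD, n = 5), and they took 1.98% to 2.27% of IP gene reads against 0.960% of unbound reads. Complex I, the entry point for electrons from NADH, had 30 of 37 subunits higher, with a median of 1.43 ± 0.11 (SD, n = 5). Ndufa7 was at 128, 156, 113, 126 and 114 CPM against 29.2, and Ndufa8 stayed below the 2-fold limit at 89.5 to 121 CPM against 60.7. In complex III 5 of 9 subunits were higher, in complex IV 8 of 11 and in ATP synthase 11 of 16. Cox5b, a complex IV subunit gene, was at 175 to 225 CPM against 45.9, whereas Cox7a2l, which is named like a subunit of complex IV but acts in supercomplex assembly, was at 106 to 141 CPM against 113. Complex II, shared with the citric acid cycle, had 1 of 4 subunits higher: Sdhb at 115 to 136 CPM against 46.8, with Sdha at 416 to 523 CPM against 352. Cocaine IP 2 had the highest respiratory chain median (1.58, the other 4 samples 1.33 to 1.39).

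Other mitochondrial genes followed with smaller ratios. Mitochondrial ribosomal proteins, which translate the few proteins encoded in the organelle, were higher in 25 of 76 cases and lower in 0, with a median of 1.02 ± 0.09 (SD, n = 5). The small subunit gene Mrps21 led them, at 55.3 to 78.3 CPM against 15.6. Import translocases were higher in 4 of 24 cases, with Timm8b, a carrier of inner membrane proteins, at 156 to 206 CPM against 44.0. Citric acid cycle enzymes had a median of 0.72 ± 0.05 (SD, n = 5) and 1 of 16 higher, the succinyl-CoA ligase gene Suclg1 at 140 to 156 CPM against 59.1. Enzymes of fatty acid beta-oxidation stood apart from the rest of the organelle, with 0 of 12 higher, 2 lower and a median of -0.27 ± 0.20 (SD, n = 5). Cpt1a, which admits long-chain fatty acids to the mitochondrion, was at 0.490 to 2.004 CPM against 5.77. Glycolytic enzymes, in the cytosol, had a median of 0.74 ± 0.14 (SD, n = 5), and 0 of 14 passed the rule. Genes encoded in mitochondrial DNA were not analysed here.

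The respiratory chain genes have short transcripts, and transcript length moved with the ratio over all genes. Genes with a reference transcript under 1 kb had a median of 0.72 ± 0.10 (SD, n = 5; 698 genes, 167 higher and 42 lower), and the median fell through 0.49 at 1 to 2 kb, 0.19 at 2 to 4 kb and 0.01 at 4 to 8 kb to -0.21 over 8 kb (654 genes, 2 higher and 83 lower). With library size as the only scaling the 4 to 8 kb median was -0.18. In the 4 length classes up to 8 kb, the genes of the respiratory chain and the mitochondrial ribosome stood above the others: under 1 kb the medians were 1.43 for 68 such genes and 0.61 for 630 others, at 1 to 2 kb 1.07 for 52 and 0.49 for 2318, at 2 to 4 kb 0.92 for 22 and 0.19 for 4881, and at 4 to 8 kb 0.91 for 11 and 0.02 for 3468. Under 1 kb, 51 of the 68 and 116 of the 630 (18.4%) were higher. These groups were matched by length class and not by level. Level moved with the ratio too, in part by construction. It is the mean CPM over the 6 samples, 5 of which are the IP samples of the ratio. The added 1 CPM also shrinks the ratios of genes at low level. Among transcripts under 1 kb, 50.8% of the genes with at least 50 CPM were higher, 24.6% of those with 10 to 50 CPM and 3.50% of those with 1 to 10 CPM.

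**Figure D3:**
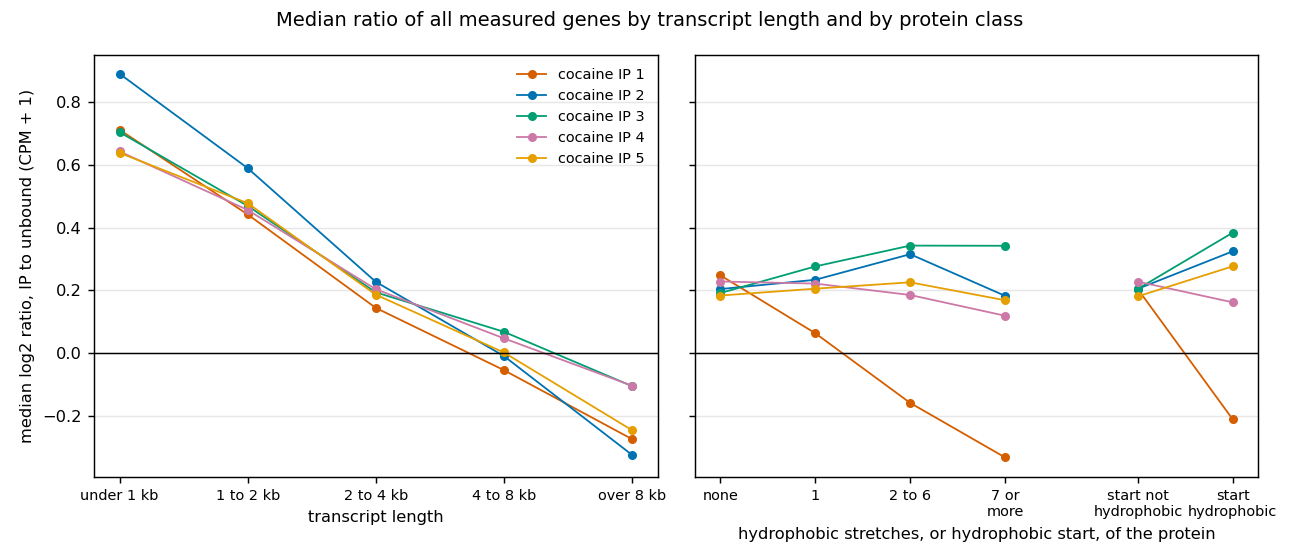
Median log2 ratio of measured genes by transcript length (left) and by predicted hydrophobic stretches of the protein (right), with 1 line for each cocaine IP sample. Length classes run from 0.72 under 1 kb to -0.21 over 8 kb on average, and cocaine IP 1 is the lowest line in the classes with several hydrophobic stretches or a hydrophobic start.

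The size of this mitochondrial signal depended on the reference sample. When the same 5 cocaine IP samples were set against the saline input instead, 137 genes were higher (1.08% of 12654) and 1208 lower (9.55%), with 100 of the 137 and 1014 of the 1208 also called against unbound RNA. Respiratory chain genes then had a median of 0.98 ± 0.11 (SD, n = 5) and 16 of 77 higher, mitochondrial ribosomal proteins 0.70 ± 0.09 and 0 of 76, and all transcripts under 1 kb 0.41. Atp5e had 148 CPM in the input and a ratio of 0.91 ± 0.13 (SD, n = 5) to it, and Uqcr11 had 77.3 CPM and 0.96 ± 0.22 (SD, n = 5). Input and unbound differ in treatment, fraction and sample at once, so what set them apart for these genes cannot be told apart. In the saline IP samples against their own input, where 211 of 12902 genes were higher (1.64%) and 1495 lower (11.6%), the respiratory chain median was 1.04 ± 0.30 (SD, n = 3), with 15 of 77 higher.

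Parts of other large assemblies were also among the higher genes. The proteasome core, the barrel that cuts tagged proteins, had 9 of 15 subunits higher, 1 lower and a median of 1.30 ± 0.11 (SD, n = 5). Psma7 was at 244 to 279 CPM against 94.8, and Psmb10, a subunit of the immunoproteasome, was the lower one at 1.24 to 3.69 CPM against 8.72. Regulatory particle and assembly genes had 3 of 29 higher, led by the assembly factor Psmg4 at 18.8 to 27.7 CPM against 5.34. Sm and LSm proteins of the spliceosome had 7 of 23 higher and a median of 1.0 ± 0.14 (SD, n = 5), whereas the longer SR and hnRNP splicing factors had 0 of 45 higher and a median of 0.14 ± 0.07 (SD, n = 5), negative with library size or upper quartile scaling. RNA polymerase II and Mediator genes had 10 of 43 higher, among them Polr2i at 21.7 to 29.7 CPM against 7.53. Shares higher were 60% (core), 10.3% (regulatory), 30.4% (Sm and LSm) and 23.3% (polymerase and Mediator), against 3.78% of all measured genes. Transcripts under 1 kb, the commonest length class of the Sm and LSm list, were higher in 23.9% of all cases, so that list lay near its class. At 1 to 2 kb, the commonest class of the proteasome, polymerase and Mediator lists, the share was 7.22%. Against the saline input the proteasome core kept a median of 0.85 with 0 of 15 higher, and the Sm and LSm list 0.72 with 1 of 23 higher, while the RNA polymerase II and Mediator list had 1 of 43 higher and the regulatory particle and assembly list 0 of 29.

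Cytosolic ribosomal proteins, whose transcripts are as short as those of the respiratory chain, did not share its ratios. Of 72 measured genes 1 was higher and 0 lower, and the median was 0.43 ± 0.03 (SD, n = 5), below the 0.72 of all transcripts under 1 kb. Against the saline input the median was -0.01 ± 0.05 (SD, n = 5), so its sign depends on the reference. The gene higher against unbound RNA was Rpl41, the shortest of these proteins, at 75.6 to 97.9 CPM against 26.9, but 72.7 CPM in the saline input. Rpl4 lay at 359 to 444 CPM against 457. Rpl10a, the gene whose product carries the EGFP tag, was counted at 1.89 to 3.42 CPM against 2.05. Ribosomal protein genes have many near-identical copies in the genome, and reads that fit several places were 33.3% to 40.5% of all reads tallied in IP and 25.9% in unbound RNA and are in no gene's count, so these levels are uncertain; the same holds for Gapdh, at 5.19 to 19.9 CPM. Translation initiation factors had 1 of 39 higher and a median of 0.54, elongation factors 0 of 8 and 0.09 (-0.10 with library size as the only scaling), and cytosolic tRNA synthetases 0 of 20 and 0.53.

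**Figure D4:**
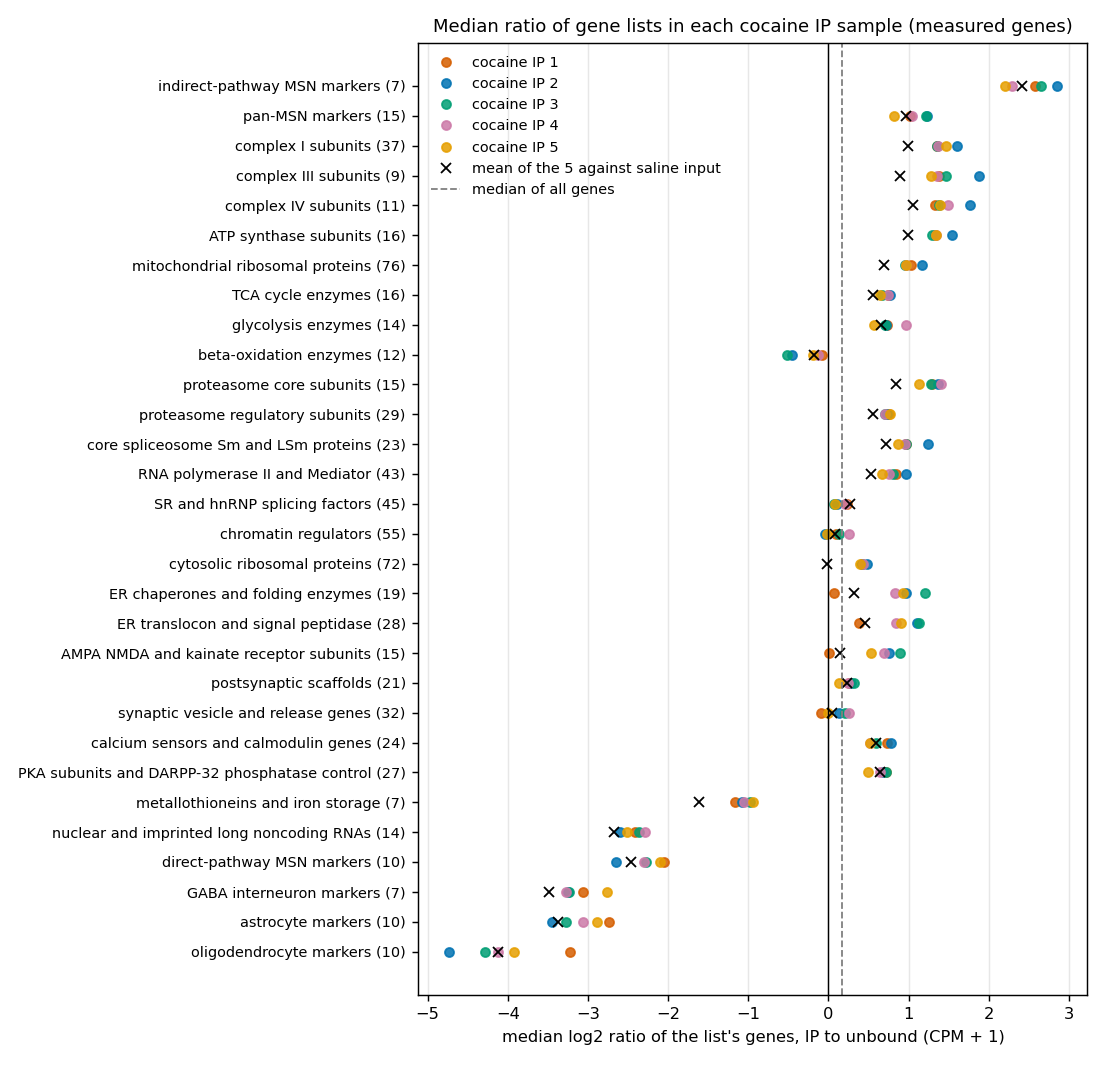
Median log2 ratio of 30 gene lists in cocaine IP against unbound RNA, 1 dot for each of the 5 IP samples, with an x for the mean of the same 5 samples against the saline input and a dashed line at the median of all genes. Respiratory chain lists sit between 1.28 and 1.87, cytosolic ribosomal proteins between 0.39 and 0.49 and oligodendrocyte markers between -4.74 and -3.23.

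Signalling genes of the striatum were found among both the higher and the lower genes. Calcium sensors, small proteins that bind calcium and pass the signal on, were split, with 8 of 24 higher and 6 lower. These are 33.3% and 25%, against 3.78% and 9.74% of all measured genes. Hpca (chr4:129111570-129122036), which encodes the neuronal sensor hippocalcin, had 10982, 11485, 9254, 7875 and 11763 CPM against 2751, a ratio of 1.88 ± 0.25 (SD, n = 5). Calm2, a calmodulin gene, had 11917 to 16312 CPM against 4720, with its highest value in cocaine IP 5. Nrgn, which binds calmodulin at synapses, had 927 to 1581 CPM against 358. S100b, the calcium binding protein of astrocytes, was among the lower ones at 1.58 to 3.48 CPM against 86.5. As a group these 24 genes took 4.22% of IP gene reads on average and 2.31% of unbound reads. The list's median was 0.63 against unbound RNA and 0.59 against the saline input, where 6 of 23 were higher. Hpca had a ratio of 2.37 to the input.

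The cyclic AMP pathway, through which the Drd2 and Adora2a receptors act in opposite directions, also held genes called in both directions. PKA subunits and regulators of DARPP-32 had 5 of 27 higher and 2 lower, with a median of 0.65 ± 0.09 (SD, n = 5). Shares were 18.5% higher and 7.41% lower for this list, against 3.78% and 9.74% of all measured genes, so its lower share was not raised. For cyclases and phosphodiesterases they were 18.2% and 18.2%, and for G protein subunits 16.7% and 25%. Against the saline input, 4 of 27 genes of the PKA and DARPP-32 list were higher and 2 lower. Cyclases and phosphodiesterases then had 1 of 22 higher and 5 lower, and G protein subunits 1 of 24 higher and 7 lower. Ppp1ca (chr19:4192065-4195420), the phosphatase catalytic subunit that DARPP-32 inhibits, was at 401, 422, 392, 395 and 333 CPM against 104. Ppp1r1b, which encodes DARPP-32 itself, was at 3023 to 3503 CPM in cocaine IP 1 to 4 and 1814 CPM in cocaine IP 5, against 1296. Adenylyl cyclases and phosphodiesterases had 4 of 22 higher and 4 lower: Pde10a, the main striatal phosphodiesterase, was at 2618 to 3174 CPM against 1245, Pde2a at 405 to 577 CPM against 150, and Pde8a at 0.339 to 1.67 CPM against 11.3. G protein subunits had 4 of 24 higher, such as Gnb5, the partner of RGS proteins, at 566 to 654 CPM against 250, and 6 lower, such as Gng11 at 0.302 to 2.24 CPM against 34.5. Rap1gap, which switches off the GTPase Rap1, was at 136 to 166 CPM against 44.0, and Rasgrp3 at 1.58 to 4.13 CPM against 43.1.

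Lists of the synapse and of excitability had 0% to 6.67% of genes higher, against 3.78% of all measured genes. Lower genes, 9.74% over all measured genes, made up 30% of inward rectifier and leak potassium channels and 22.2% of dendritically localized transcripts. They made up 20% of AMPA, NMDA and kainate receptor subunits, 18.75% of neurexins, neuroligins and Lrrtm genes and 16.7% of AMPA receptor auxiliary subunits. In the other lists of this kind the share was 0% to 14.3%. Synaptic vesicle genes had 1 of 32 higher and 2 lower, postsynaptic scaffolds 0 of 21 and 3, voltage-gated calcium and sodium channels 0 of 25 and 2, voltage-gated potassium channels 0 of 38 and 5, and inward rectifier and leak potassium channels 0 of 20 and 6. The kainate receptor gene Grik3 was higher, at 141, 231, 267, 216 and 209 CPM against 54.3. Kcnc2, a potassium channel gene of fast-spiking interneurons, was lower at 1.01 to 3.47 CPM against 40.3, and Kcnj10, the astrocyte inward rectifier gene, at 2.53 to 7.03 CPM against 63.5. Motor protein genes had 2 of 42 higher and 4 lower, among the latter the neuronal kinesin gene Kif5a at 241 to 319 CPM against 1137; its paralog Kif5c was at 1048 to 1536 CPM against 1729.

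RNAs known to stay in the nucleus were among the lower genes. Malat1 (chr19:5795690-5802672), a long noncoding RNA of nuclear speckles, had 305, 294, 369, 198 and 573 CPM in the IP samples and 33356 CPM unbound, a mean log2 ratio of -6.67 ± 0.56 (SD, n = 5). Meg3, an imprinted noncoding RNA, had 57.0 to 150 CPM against 3899. Cocaine IP 5 had the highest value of both. AK140265, a transcript with no match in the annotation used here, took 5.28% of unbound gene reads and 0.00590% to 0.0125% of cocaine IP reads. Of 14 measured nuclear and imprinted long noncoding RNAs 10 were lower, with a median of -2.44 ± 0.13 (SD, n = 5), and Dlx6os1 was at 75.4 to 82.7 CPM against 58.8. Of 11 host genes of small nucleolar RNAs 4 were lower: Snhg11 was at 24.6 to 58.9 CPM against 999, but Snhg1 at 29.5 to 40.6 CPM against 21.6. Over all genes annotated as long noncoding the median was -0.24, with 57 of 346 lower, against 0.20 for protein-coding genes.

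Gene families were counted by symbol. Among 126 families that share the start of a symbol and have at least 10 measured genes, 4 passed the listing rule (at least 40% of members higher or 50% lower). Both complex I families were among them, with Ndufa at 11 of 13 and Ndufb at 10 of 10 higher. Sox transcription factor genes had 7 of 12 lower and a median of -2.48, though Sox8 was at 54.8 to 64.7 CPM against 59.8 and Sox11 at 51.7 to 57.7 CPM against 92.9. The clustered Pcdhga genes, adhesion receptors of neurons, had 5 of 12 higher and a median of 1.76. They share their last exons with each other, so the counts of single members are uncertain. Metallothioneins and iron storage genes had 3 of 7 lower: Mt2 was at 5.17 to 7.57 CPM against 99.5 and the ferritin gene Fth1 at 457 to 642 CPM against 2161, while Mt1 was at 127 to 169 CPM against 92.4.

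Genes of the secretory pathway differed in ratio among the IP samples. ER chaperones and folding enzymes had median log2 ratios of 0.06, 0.97, 1.20, 0.83 and 0.93 in cocaine IP 1 to 5, and 0 of 19 were called. The translocon and signal peptidase list, which moves new proteins into the ER, had 6 of 28 higher and medians of 0.38 in cocaine IP 1 and 0.85 to 1.13 in the other 4. Against the saline input, the mean of the medians was 0.32 ± 0.43 (SD, n = 5) for the chaperone list. For the translocon list it was 0.45 ± 0.33 (SD, n = 5), with 0 of 28 higher. The coding starts of some genes are shown to illustrate a hydrophobic start of the encoded protein. The first 30 codons are printed from the same genome and annotation, with capitals over the 12-codon window of highest mean Kyte-Doolittle hydropathy where that mean was at least 2. Hsp90b1 (chr10:86690209-86705509) and Manf (chr9:106838312-106891979) encode ER-resident proteins, Penk (chr4:4133531-4138819) a secreted peptide precursor, and Hpca and Ppp1ca, both without such a window, proteins of the cytosol.
Hsp90b1: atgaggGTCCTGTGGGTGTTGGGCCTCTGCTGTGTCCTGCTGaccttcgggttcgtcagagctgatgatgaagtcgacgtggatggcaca
Manf: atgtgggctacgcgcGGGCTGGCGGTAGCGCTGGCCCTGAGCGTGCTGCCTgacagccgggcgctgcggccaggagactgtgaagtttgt
Penk: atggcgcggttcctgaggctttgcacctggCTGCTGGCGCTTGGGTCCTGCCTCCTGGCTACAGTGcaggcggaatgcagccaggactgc
Hpca: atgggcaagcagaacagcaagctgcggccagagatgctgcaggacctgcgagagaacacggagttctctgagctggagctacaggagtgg
Ppp1ca: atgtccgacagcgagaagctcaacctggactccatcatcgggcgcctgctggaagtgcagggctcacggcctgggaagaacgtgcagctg
Hsp90b1 had 249, 467, 517, 424 and 563 CPM in cocaine IP 1 to 5 and 238 CPM unbound. Manf had 18.3, 44.5, 41.1, 31.5 and 29.7 CPM against 10.8. Both genes, like Penk, were lowest in cocaine IP 1, whereas Hpca and Ppp1ca, with no hydrophobic start, had in cocaine IP 1 values inside the range of the other 4.

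The difference held over all genes of that kind. The 1764 measured genes whose protein has a hydrophobic start (such a window within the first 40 residues, a class defined after list values had been seen) had median log2 ratios of -0.21, 0.32, 0.38, 0.16 and 0.28 in cocaine IP 1 to 5. The 9928 genes without one had 0.20, 0.21, 0.20, 0.23 and 0.18. Genes with 7 or more predicted membrane-spanning stretches gave -0.33 in cocaine IP 1 and 0.12 to 0.34 in the other 4. The pattern was also present within length classes: among transcripts of 4 to 8 kb, genes with 7 or more stretches had a median of -0.34 in cocaine IP 1 and 0.28 over the other 4, and genes with none 0.02 and -0.03. Among the saline samples, IP 1 likewise had the lowest median for hydrophobic starts, -0.38, against 0.14 and -0.00 in saline IP 2 and 4. Cocaine IP 1 and 2, with medians of -0.21 and 0.32 for hydrophobic starts, share lane 6, and the part of lane was not tested. Cocaine IP 1 also had the highest median of oligodendrocyte markers, -3.23 against -4.74 to -3.93 in the other 4, and the highest share of glial reads, 0.0951%; their part in this pattern was not tested.

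Several groups above depend on this sample. Glutamate receptor subunits of the AMPA, NMDA and kainate types had a median of 0.01 in cocaine IP 1 and 0.53 to 0.89 in the other 4, and neurexins, neuroligins and Lrrtm genes -0.02 and 0.61 to 0.96. Over all 5 samples their medians averaged 0.58 and 0.61 against unbound RNA, and 0.15 and 0.34 against the saline input. Gria2, the AMPA receptor subunit gene, was at 549 CPM in cocaine IP 1, 963 to 1163 CPM in the other 4 and 676 CPM unbound. Gabrd, a subunit gene of tonic GABA currents, was at 55.2 CPM and 89.2 to 137 CPM against 28.8, and so missed the rule through cocaine IP 1 alone. Without cocaine IP 1 the number of higher genes over all measured genes was 699 in place of 478, and the ER chaperone median was 0.98 in place of 0.80. With fewer samples the rule is easier to pass, and leaving out each of the other samples in turn gave 482 to 628 higher genes.

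Cocaine IP 1 had 1 further feature, on the X chromosome. Prps2 (chrX:167346322-167382749), a nucleotide synthesis gene, was at 85.4 CPM in cocaine IP 1, 87.2 CPM in saline IP 1 and 94.3 CPM in the unbound sample, but at 26.6 to 33.6 CPM in the other 6 IP samples of both treatments and 31.9 CPM in the input. Its measured neighbours Frmpd4, Msl3, Arhgap6 and Hccs, which follow it on the chromosome up to chrX:169250193-169320372, were all raised in the same IP samples. Frmpd4, a postsynaptic scaffold gene, had 373 CPM in cocaine IP 1, 458 CPM in saline IP 1 and 192 CPM unbound, against 137 to 170 CPM in the other IP samples and 92.6 CPM in the input. Msl3 had 57.0, 49.5 and 42.9 CPM in the same 3 samples against 24.4 to 31.2 and 18.4. Arhgap6 had 54.4, 59.9 and 33.6 CPM against 20.02 to 24.8 and 23.6, and Hccs 74.3, 58.7 and 51.3 CPM against 29.4 to 35.8 and 30.95; both were named after their values were seen. The flanking gene Tmsb4x, at 3033 CPM in cocaine IP 1, lay inside the 2359 to 3557 CPM of the other IP samples, and had 1022 CPM unbound. The flanking gene Tceanc had 2.58 CPM in cocaine IP 1, 2.08 to 3.28 CPM in the other IP samples and 4.96 CPM unbound, so the unbound sample lay outside the IP range for these flanking genes as well. Wdfy1, on chromosome 1, had 29.4, 32.1 and 35.2 CPM in the same 3 samples, 7.62 to 10.1 CPM in the other IP samples and 13.9 CPM in the input. For all 6 genes the unbound sample lay above the other 6 IP samples; for Frmpd4, Msl3, Arhgap6 and Hccs it also lay below both IP 1 samples. Of the 6, Prps2, Wdfy1, Frmpd4 and Msl3 were among the 5 whose ratio lay furthest below that of the saline comparison. The fifth of those was Nefm, a neurofilament gene, at 224 to 388 CPM in cocaine IP, 475 CPM unbound and 0.81 above its input in the log2 ratios of the saline samples.

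**Figure D5:**
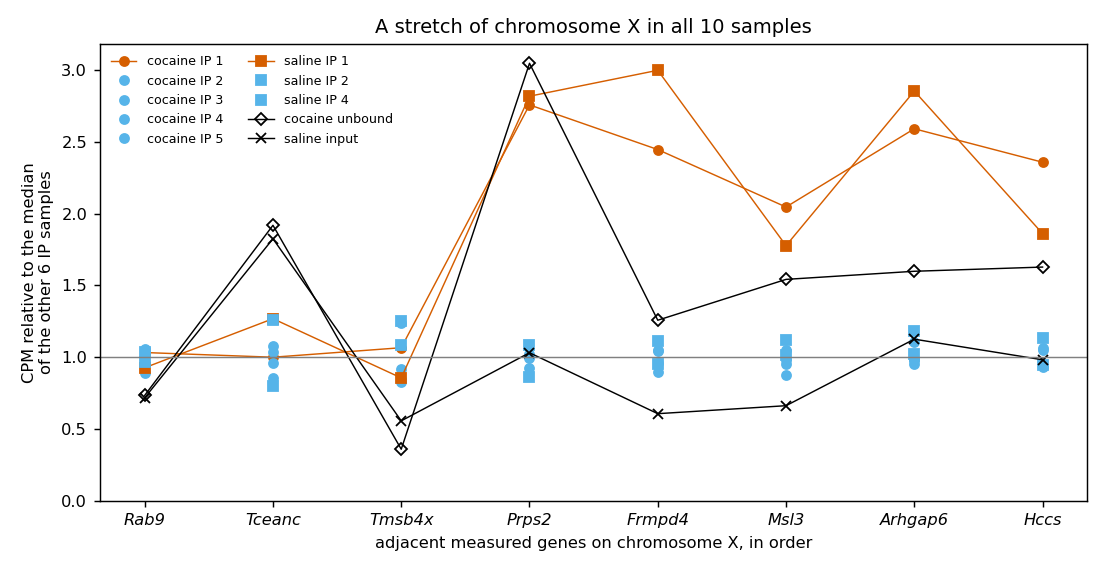
CPM of 8 adjacent measured genes on the X chromosome, each divided by its median over the 6 IP samples other than the IP 1 samples, in all 10 samples. Cocaine IP 1 and saline IP 1 both stand above the other IP samples for the 5 genes from Prps2 to Hccs, and not both for any flanking gene. At the flanking gene Tceanc, saline IP 1 had 3.28 CPM and the other 6 IP samples 2.08 to 3.25 CPM. The unbound sample differs from the IP samples at flanking genes too. All flanking genes drawn lie before Prps2, and Erdr1, beyond Hccs, is not drawn.

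The 10 genes whose ratios varied most between the IP samples, among those averaging 10 CPM or more, included activity-dependent genes and markers of other cells. Immediate early genes, which neurons transcribe within minutes of stimulation, had median log2 ratios of 0.34, 0.17, -0.13, -0.25 and -0.66 in cocaine IP 1 to 5, with 0 of 17 higher and 1 lower. Nr4a1, a nuclear receptor gene, was at 42.0, 23.6, 18.2, 12.3 and 3.92 CPM against 24.8. Egr2 was at 27.8, 24.9, 28.6, 11.9 and 4.49 CPM against 17.2. Egr3, of the same family, was nearly constant at 441 to 474 CPM against 311. Among markers of other cells, Tbr1, Slc17a7 and Nr4a2 were lowest in cocaine IP 3, at 0.717, 0.522 and 0.619 CPM, where the other 4 IP samples had 5.32 to 7.17, 4.80 to 9.62 and 8.01 to 9.39 CPM. Prkcd, a kinase gene, was highest in cocaine IP 1, at 16.5 CPM against 0.717 to 3.87 CPM in the other 4 and 66.5 CPM unbound.

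Calls in the cocaine samples were set beside those in the saline samples. Over 12554 genes measured in both comparisons, 128 were higher in both, which is 26.8% of those higher against unbound RNA and 61.2% of those higher in saline IP against input. For the lower genes 1058 were shared, or 87.6% and 82.1%. Set sizes limit these shares: 478 and 209 genes were higher, 1208 and 1288 lower. Over all genes measured in each comparison, 3.78% and 1.64% were higher and 9.74% and 11.6% lower. The lower genes also include those that passed the filter through the unbound sample only. Whether lower genes recur more than higher ones therefore cannot be read from these overlaps. The comparisons share no samples, but treatment, reference fraction and sample differ together, and the difference between them was not tested. Pcdhgc5, Pcdhga7, Peg10 and Nts were among the genes whose ratio lay furthest above that of the saline comparison. Nts, the neurotensin precursor gene, was at 15.1 to 18.4 CPM on cocaine ribosomes, 2.69 CPM unbound and 8.81 CPM in the saline input, a ratio of 2.20 ± 0.11 (SD, n = 5) against unbound RNA and 0.79 ± 0.11 (SD, n = 5) when the input was the reference.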

How the data were processed

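Whole striatum RNA from mice of 1 line was sequenced in 10 samples, of which 6 (5 cocaine IP and 1 cocaine unbound) form the comparison. The authors deposited raw read counts per gene symbol, 1 table per sample. Reads were aligned with STAR 2.0.0e to mm10 and counted with HTSeq, per the submitters' processing notes. Which annotation was counted, and with what strand option, is not given in the sources used here. Rows for reads without a gene were left out of library sizes. Depth, given in the results, limits precision at low CPM, and intervals and floors cover counting error only, since reads without molecular identifiers are not independent molecules.

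CPM was computed in R 4.3.3 with TMM factors from edgeR 4.0.16 over the 6 samples, and over the saline samples separately. Ratios, filter and calls are defined in the results. Transcript lengths, positions and coding sequences came from GENCODE on GRCm38, the assembly of mm10, with 23161 symbols matched directly and 789 by an older name. A hydrophobic stretch is a window of 19 residues with mean hydropathy of at least 1.6. The ratio and the 2-fold call were run on simulated counts, scaled by library size, with known changes in some genes. TMM scaling, lists and classes were not part of that test. The gene groups and the 82 gene lists were chosen with earlier results of these data known. Genes named were the 15 highest and 15 lowest by the IP sample nearest to no change (1 and 17 models without a standard symbol skipped), the most abundant, highest and lowest member of each list, the most abundant and most variable genes, those furthest from the saline comparison, the largest members of listed families and 17 fixed genes. Not all of these appear, and any other gene was named after its values were seen. Alternatives covered scaling (library size, DESeq2 1.42.0 size factors, upper quartile, Rn45s left out), the added CPM, the filter, the call rule, the reference sample and the IP samples used.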

Additional observations from a re-analysis of the deposited data

Results flagged for a closer look

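Among 5 IP samples, a single sample lying far from the other 4 is expected by chance in about 1 in 20 groups of values. Of 186 sets of values examined (list and class medians, sample measures and named genes) 28 had such a sample. Some of these genes were picked as the most variable or named after their values were seen, and lists share genes, so this number is not set against chance.

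In cocaine IP 1 the median log2 ratio was -0.47 for extracellular matrix genes (the other 4 samples -0.04 to 0.11), -0.46 for axon guidance genes (-0.01 to 0.17) and -0.14 for voltage-gated calcium and sodium channels (0.48 to 0.67). The same sample stood apart for Gria2 (-0.30, the others 0.51 to 0.78) and for Chat (0.69, the others -0.75 to -0.36). In the X chromosome stretch it had log2 ratios of -0.14 for Prps2, 0.96 for Frmpd4, 0.40 for Msl3, 0.68 for Arhgap6 and 0.53 for Hccs, where the other 4 samples lay between -1.69 and -0.26 over these 5 genes. For Wdfy1 it had -0.25 and the others -2.03 to -1.83.

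In cocaine IP 2 the higher side was affected: ATP synthase subunits had a median of 1.54 (the others 1.29 to 1.34), genes with transcripts of 1 to 2 kb 0.59 (0.44 to 0.48), Cox5b 2.27 (1.905 to 1.96), Psmg4 2.18 (1.64 to 1.70) and Nts 2.39 (2.12 to 2.17). In cocaine IP 3 markers of cells outside the striatum were lowest, with a median of -4.48 for pallial glutamatergic neurons (-2.96 to -2.78 in the others), -3.12 for midbrain dopamine neurons (-1.98 to -1.61 in the others), -4.998 for Tbr1 (-3.12 to -2.75) and -4.79 for Nr4a2 (-2.31 to -2.11). The dopamine neuron list has only 4 measured genes. Among them Nr4a2 is also on the immediate early gene list, and Slc18a2 had a mean log2 ratio of -0.48. In cocaine IP 5 Rn45s took 1.497% of gene reads, a log2 ratio of -0.27 (1.54 to 1.81 in the others). The same sample had 0.48 for Ppp1r1b (1.22 to 1.43), 0.57 for Sdha (0.24 to 0.29), -0.078 for Rpl10a (0.38 to 0.54), -0.093 for Gapdh (1.27 to 1.66), 1.79 for Calm2 (1.34 to 1.44) and -0.17 for Kif5c (-0.72 to -0.57).

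The imprinted gene Peg10 lay above unbound RNA in all 5 cocaine IP samples, with a mean log2 ratio of 0.54, and below the input in all 3 saline IP samples, with -1.11. Nefm went the other way, with -0.63 and 0.81. These opposite signs were not tested, and treatment, fraction and sample cannot be told apart.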

How the results depend on the processing

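The count of higher genes (478) was 247 with library size alone, 293 with upper quartile scaling, 294 with 5 CPM added, 137 with the saline input as reference, 828 with the 2 lane 6 samples, 728 with the 3 lane 4 samples and 1130 when the mean ratio decided. The count of lower genes (1231) was 756 with 5 CPM added, 556 for genes with at least 5 CPM and 1891 without a filter. Calls were 17.2% higher with upper quartile scaling. Leaving out each IP sample in turn gave 482 to 699 higher and 1318 to 1395 lower genes, the most of both without cocaine IP 1; without cocaine IP 5 they were 628 and 1368. The other alternatives stayed within 1.5 times. The median over all genes ran from -0.06 without a filter to 0.28 for genes with at least 5 CPM. Signs held under every alternative run for 60 of 80 lists, 7 of 11 classes and 249 of 280 genes picked by the naming rule, and no called list or gene reversed. The 20 lists that changed sign include SR and hnRNP factors, Zfp genes, chromatin regulators, synaptic vesicle genes and cytosolic ribosomal proteins. No paired analysis was possible because the unbound fraction has 1 sample. Depth limits the scarce transcripts: 3 reads in the unbound sample are 0.128 CPM.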
